A study of Mus musculus with 8 samples.

Results

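The genes described here encode the proteasome, the protease complex that degrades proteins marked with ubiquitin. They are the genes on the array with exactly 1 annotated symbol that begins with Psma, Psmb, Psmc, Psmd, Psme, Psmf or Psmg followed by a digit, without the interferon-induced subunits Psmb8, Psmb9 and Psmb10. The brightest row stood for each gene, which gave 47 of the 19938 genes measured. Each of 8 samples was hybridised to a Mouse Gene 1.0 ST array of Affymetrix, which reads each transcript with many probes along its length. The samples were primary mammary tumors under 1.0 cm in diameter from FvB mice of the MMTV-Neu genotype, in which a viral promoter active in mammary epithelium drives the rat homolog of Erbb2; all groups carry it. Sorting split the cells of a tumor into the fraction of tumor-initiating cells (TIC), with 4 arrays, and a CD24-negative (CD24-) fraction that the labels call the non-tumor-initiating one, also with 4. Tumors N251, N260 and N283 gave 1 array of each fraction, and the cells of N222 and N229 were mixed 1:1 before sorting and gave the remaining pair, called the pool here. The growth protocol gives N250 and N261 in place of N251 and N260. The labels state neither the markers of the TIC gate nor the age of the mice.

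The proteasome has a barrel-shaped core, the 20S particle, built of alpha rings that control entry and beta rings that hold the proteolytic sites. A regulatory cap, the 19S particle, binds ubiquitin chains, unfolds the substrate with a ring of ATPases and feeds it into the core. Other caps can take its place, assembly chaperones put the rings together, and the transcription factor Nrf1 (gene Nfe2l1) is known to drive the subunit genes as a group when proteasome activity falls short.

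The fractions were checked against cell type markers. Luminal epithelial markers averaged 10.6 to 10.7 (log2 intensity) in the TIC arrays and 9.71 to 10.6 in the CD24- arrays, and 0 of the 9 were called. Macrophage markers averaged 6.42 to 6.78 in the TIC arrays and 9.47 to 11.97 in the CD24- arrays. Of 12 macrophage markers 9 were called lower in the TIC fraction and 0 higher, and of 8 pan-leukocyte markers 7 were called lower and 0 higher. Of 9 cell-cycle markers 8 were called higher in the TIC fraction and 0 lower. Of 6 T and NK cell markers 2 were called lower, and 0 of 6 fibroblast, 0 of 6 endothelial and 0 of 5 basal markers were called. Without the tumor block, 0 cell-cycle, 9 macrophage, 5 pan-leukocyte and 2 T and NK cell markers were called, and without N260 or without N283, 0 of any of these lists. The cell-cycle count was 6 with a random tumor block, 5 after cyclic loess and 4 without the pool. Cd24a RNA was at 12.1 to 12.5 in the TIC arrays and 10.5 to 12.1 in the CD24- arrays, so its RNA was not absent from the fraction sorted as lacking the protein. Within each pair it was higher in the TIC array, by 1.729, 1.043, 0.385 and 1.267 in N251, N260, N283 and the pool. The mean of 1.11 ± 0.21 (SE) had an adjusted p = 0.0691 with a fixed tumor block and 0.0293 with a random one (limma). In bulk samples of this kind, fewer cells of a type and less RNA per cell cannot be told apart.

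Proteasome transcripts differed little between the fractions, and no single gene passed the test. All differences are the TIC minus the CD24- value of the same tumor on the log2 scale, fitted with limma on all 19938 genes with the tumor as a block. Calls were made where p, adjusted over all genes by Benjamini-Hochberg, was under 0.05. Of the 47 proteasome genes 0 were called higher and 0 lower in the TIC fraction, where 0.863% of all genes were called higher and 1.09% lower. A count of 0 among 47 genes is near these shares. The lowest adjusted p of limma was 0.118, for the ATPase gene Psmc5, or 0.0948, for Psmc1, where the rows of a gene were averaged. At an unadjusted p under 0.05, 19 proteasome genes (40.4%) were higher and 0 were lower, beside 14.2% higher and 8.08% lower of all genes. That count was 7 without the tumor block, 9 after cyclic loess, 6 without tumor N260, 6 without N283 and 11 without N251. The share of all genes was not computed in these settings, so a change relative to all genes cannot be read from them.

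Most of the mean differences were small and positive. They ran from -0.15 to 0.37 by the rows used (unused rows of Psma5 and Psmc1 gave 0.50 and 0.40). Their median was 0.20 (1.15-fold), beside a median of 0.04 over all genes. The median was 0.25 after median centring of the arrays, 0.16 after quantile normalization and 0.10 after cyclic loess, so it kept its sign. Over all genes the median moved too, to 0.09, 0.04 and 0.002 in the same order. A mean difference above 0 was found for 42 of the 47 genes (89.4%), against 59.5% of all genes. In all 4 tumors 25 genes (53.2%) were higher in the TIC fraction, where 23.2% of all genes were. The count was 33 after median centring, 21 after quantile normalization and 18 after cyclic loess, beside 29.4%, 20.6% and 16.1% of all genes. Without the pool, 38 were higher in the other 3 tumors, as were 32.7% of all genes. Only Psme1 was lower in all 4 tumors, where 11.8% of all genes were.

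Bright genes as a whole leaned the same way, and most proteasome genes are bright. Of the 47 genes 43 were at or above the median level of all genes, the exceptions being Psma8, Psmb11, Psmc3ip and Psmg3. Over the 9969 genes at or above that level, the median difference was 0.11, 69.2% had a mean above 0, 34.4% were higher in all 4 tumors and 21.5% were higher at an unadjusted p under 0.05. The 43 proteasome genes among them had a median of 0.20, with 40 means above 0, 24 genes higher in all 4 tumors and 18 higher at an unadjusted p under 0.05. In the plot of the 3 distributions 42 proteasome genes lie right of 0 and 5 left of it.

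**Figure D1:**
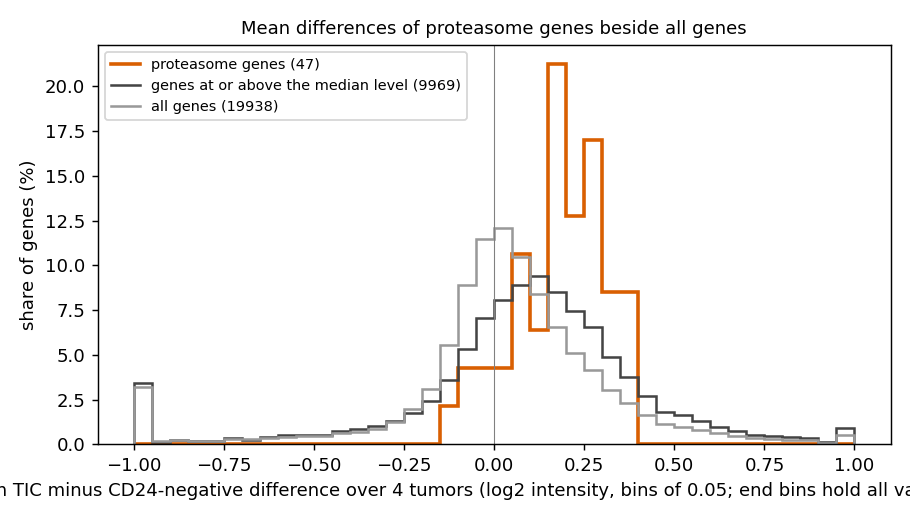
Share of genes (%) by mean TIC minus CD24- difference over 4 tumors (log2 intensity, bins of 0.05, with the end bins holding all values beyond), for the 47 proteasome genes, the 9969 genes at or above the median level and all 19938 genes. The proteasome genes lie between -0.15 and 0.37, around a median of 0.20.

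Promoter windows of 300 bases, from 250 before to 50 after the transcript start, were given by RefSeq (GRCm38.p6) for 39 of the 47 genes. Those without a window are Psma8, Psmb1, Psmb2, Psmb7, Psmc3, Psmd3, Psmd7 and Psmg2. The windows shown are those of a catalytic subunit, an ATPase and a lid subunit with positive means, which hold the core of the antioxidant response element that Nrf1 binds (TGACNNNGC on either strand, in capitals), and of Psme1, the gene lower in every tumor, which holds a motif bound by interferon regulatory factors (GAAA, any 2 bases and GAAA, on either strand, in capitals).
Psmb5 (GRCm38.p6, chr14:54617946-54618245, minus strand): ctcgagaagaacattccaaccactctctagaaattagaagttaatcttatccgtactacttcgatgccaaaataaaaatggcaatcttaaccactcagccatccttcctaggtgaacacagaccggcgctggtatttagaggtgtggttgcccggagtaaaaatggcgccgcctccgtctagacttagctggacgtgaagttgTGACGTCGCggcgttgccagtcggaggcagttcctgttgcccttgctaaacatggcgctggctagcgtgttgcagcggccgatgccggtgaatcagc
Psmc6 (GRCm38.p6, chr14:45329574-45329873, plus strand): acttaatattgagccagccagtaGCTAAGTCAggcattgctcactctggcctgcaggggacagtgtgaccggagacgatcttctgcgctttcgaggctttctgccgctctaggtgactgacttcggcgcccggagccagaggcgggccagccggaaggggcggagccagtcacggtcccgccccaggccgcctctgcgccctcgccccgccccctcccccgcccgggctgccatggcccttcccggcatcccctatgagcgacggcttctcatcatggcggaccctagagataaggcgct
Psmd12 (GRCm38.p6, chr11:107479278-107479577, plus strand): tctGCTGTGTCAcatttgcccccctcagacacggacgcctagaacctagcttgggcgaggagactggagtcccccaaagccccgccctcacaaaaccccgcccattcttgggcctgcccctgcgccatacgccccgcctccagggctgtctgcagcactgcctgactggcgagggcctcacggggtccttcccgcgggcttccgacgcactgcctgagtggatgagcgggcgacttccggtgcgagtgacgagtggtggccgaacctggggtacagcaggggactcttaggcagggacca
Psme1 (GRCm38.p6, chr14:55578244-55578543, plus strand): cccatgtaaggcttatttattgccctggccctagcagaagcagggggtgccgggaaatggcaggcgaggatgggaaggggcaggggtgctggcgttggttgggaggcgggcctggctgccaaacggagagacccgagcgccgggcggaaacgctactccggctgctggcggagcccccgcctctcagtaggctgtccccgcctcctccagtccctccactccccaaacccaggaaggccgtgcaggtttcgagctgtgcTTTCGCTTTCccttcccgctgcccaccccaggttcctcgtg

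The response element core was in the windows of 6 of the 39 genes (15.4%), Psmb5, Psmb6, Psmc6, Psmd9, Psmd12 and Psme4, and in those of 14.0% of the 27025 genes that have any window. Their differences ran from 0.08 for Psmb6 to 0.36 for Psmd12. The GC box GGGCGG was in the windows of 23 genes (59.0%, against 38.2% of all genes) and CCAAT in those of 15 (38.5%, against 41.1%), both strands being searched. The interferon motif was in 5 (12.8%, against 4.0%), Psmb3, Psmd4, Psmd9, Psme1 and Psmg4. Means of these genes ran from -0.15 to 0.17, and only that of Psme1 was negative. Psme2 is not among these genes. No marked match overlaps another of the 4 motifs, and genes with more than 1 window were counted if any held the motif. A match is a string of letters and not a shown binding site.

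Among the genes of the alpha ring, 7 of 8 had a positive mean, 4 of the 8 were higher in all 4 tumors and the median difference was 0.21. Psma7 had the largest by the brightest row of each gene. It was at 9.07, 9.25, 9.38 and 9.07 in the TIC arrays of N251, N260, N283 and the pool, against 8.56, 8.85, 9.03 and 8.99 in the CD24- arrays of the same tumors. All 4 TIC arrays were above all 4 CD24- arrays, and the difference of 0.33 ± 0.09 (SE) had an adjusted p = 0.135 (limma). Psma8, an alpha subunit known from the testis, had the smallest difference, at -0.06 ± 0.11. It was at 5.42, 5.44, 5.39 and 5.48 in the TIC arrays, against 5.85, 5.43, 5.31 and 5.40 in the CD24- arrays, so the N251 array of the CD24- fraction stood above the other 7. The lower quartile of all rows was 5.82 to 5.94 by array, and Psma8 lay below it in all 8 arrays. By their brightest rows the other 6 alpha genes had differences of 0.18 to 0.30, and a second row of Psma5 gave 0.50.

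Genes of the beta ring showed a smaller median difference of 0.13, with 7 of 8 means above 0 and 4 genes higher in all 4 tumors. Psmb1, a beta subunit without proteolytic activity, had the largest. It was at 9.85, 9.97, 10.12 and 9.85 in the TIC arrays, against 9.21, 9.79, 9.96 and 9.88 in the CD24- arrays, in the same tumor order. N251 differed by 0.64 and the pool by -0.03, and the mean was 0.24 ± 0.12 (SE, adjusted p = 0.304, limma), against 0.11 without N251 and 0.13 after cyclic loess. The CD24- array of N251 was the lowest of the 8, and the groups overlapped. Psmb11, the beta subunit of the thymus, was at 6.68, 6.63, 6.63 and 6.70 in the TIC arrays, against 6.72, 6.60, 6.78 and 6.64 in the CD24- arrays, and the groups overlapped (-0.03 ± 0.07). Psmb3, a noncatalytic subunit, differed by 0.03 ± 0.07, with 2 tumors higher.

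The catalytic subunits Psmb5, Psmb6 and Psmb7, which carry the chymotrypsin-like, caspase-like and trypsin-like activities, overlapped between the fractions. Psmb5 was at 12.08, 12.12, 12.19 and 11.56 in the TIC arrays, against 11.67, 11.96, 12.08 and 11.54 in the CD24- arrays. Psmb6 was at 10.44, 10.38, 10.58 and 9.74, against 10.32, 10.26, 10.43 and 9.79 in the CD24- arrays. Psmb7 was at 9.92, 10.14, 10.22 and 9.64, against 9.57, 10.01, 10.07 and 9.52 in the CD24- arrays. For all 3 genes the pool was the lowest of the 4 tumor samples in both fractions. The differences were 0.17 ± 0.09 for Psmb5, 0.08 ± 0.07 for Psmb6 and 0.19 ± 0.08 for Psmb7 (SE). The 95% intervals of limma, not adjusted for the number of genes, ran from -0.05 to 0.39, from -0.10 to 0.27 and from 0.001 to 0.38. After cyclic loess the differences were 0.10 for Psmb5, -0.02 for Psmb6 and 0.08 for Psmb7, and that of Psmb5 was 0.09 without N251.

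The ATPase ring of the 19S cap had the largest median difference of the role groups, 0.29, with 6 of 6 means above 0 and 5 genes higher in all 4 tumors. Psmc5 was at 8.29, 8.54, 8.60 and 8.11 in the TIC arrays, against 7.73, 8.15, 8.19 and 8.01 in the CD24- arrays. Within each tumor the TIC array was higher, by 0.57, 0.39, 0.41 and 0.11, although the groups overlapped. The mean of 0.37 ± 0.10 (SE; 95% interval 0.13 to 0.60) is 1.29-fold. Psmc3 had the smallest difference of the ATPases, 0.13 ± 0.08, at 9.18, 9.18, 9.19 and 8.98 in the TIC arrays against 8.91, 8.95, 9.16 and 9.004 in the CD24- arrays. It differed by 0.03 after cyclic loess and by 0.08 without N251. The differences of Psmc6, Psmc1, Psmc2 and Psmc4 were 0.35, 0.30, 0.27 and 0.26, and Psmc2 was higher in all 4 TIC arrays than in any CD24- array. Differences between role groups were not tested.

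The non-ATPase subunits of the cap, which hold the ubiquitin receptors and the deubiquitinase, all had positive means (11 of 11, median 0.19), and 6 were higher in all 4 tumors. Psmd12, a lid subunit, had the largest difference. It was at 9.69, 9.93, 9.92 and 9.83 in the TIC arrays, against 9.02, 9.58, 9.54 and 9.80 in the CD24- arrays, a mean of 0.36 ± 0.12 (SE, adjusted p = 0.166, limma). The pool showed almost no difference (0.02), whereas N251 showed 0.67. Psmd8, another lid subunit, had the smallest, 0.14 ± 0.08. It was at 10.63, 10.73, 10.90 and 10.37 in the TIC arrays and 10.44, 10.53, 10.68 and 10.41 in the CD24- arrays, and differed by 0.04 after cyclic loess. Psmd4, a ubiquitin receptor, differed by 0.17, Psmd14, the deubiquitinase of the lid, by 0.17, and its partner Psmd7 by 0.34. The large scaffold subunits Psmd1 and Psmd2 differed by 0.24 and 0.31, and Psmd2 was higher in all 4 TIC arrays than in any CD24- array.

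The genes of the other caps had differences of both signs, with a median of 0.01 over the 5 genes of activators and inhibitor. Psme1 and Psme2 encode the subunits of the PA28 ring, which interferon gamma is known to induce. Psme1 was at 10.03, 9.90, 9.89 and 9.90 in the TIC arrays, against 10.31, 10.07, 10.02 and 9.90 in the CD24- arrays, a difference of -0.15 ± 0.08 (SE, adjusted p = 0.319, limma). It was lower in the TIC array of each tumor, by 0.004 in the pool, and its mean was -0.26 after cyclic loess. Psme2 was at 10.80, 10.88, 10.82 and 10.35 in the TIC arrays, against 11.11, 10.98, 10.91 and 10.19 in the CD24- arrays (-0.08 ± 0.10), so it was lower in the TIC array in 3 tumors and higher in the pool. The mean of Psme2 was -0.01 without N251, -0.17 without the pool and -0.18 after cyclic loess. Psme3, the nuclear relative of PA28, was at 10.15, 10.28, 10.29 and 10.69 in the TIC arrays and 10.26, 10.38, 10.06 and 10.67 in the CD24- arrays, with both signs among the tumors (0.01 ± 0.09, and -0.09 after cyclic loess). Psme4, the large single-chain activator, was at 10.19, 10.19, 10.50 and 10.29 in the TIC arrays, against 9.87, 10.08, 10.06 and 10.17 in the CD24- arrays. All 4 TIC values of Psme4 were above all 4 CD24- values (0.25 ± 0.09, adjusted p = 0.185, limma), with a difference of 0.14 after cyclic loess. Psmf1, which encodes a proteasome-binding inhibitor, differed by 0.08 ± 0.07.

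The assembly chaperone genes had 7 of 7 positive means and a median of 0.20. Psmg2, which helps to form the alpha ring, was at 9.75, 10.08, 10.04 and 9.53 in the TIC arrays, against 9.16, 9.66, 9.72 and 9.44 in the CD24- arrays, 0.35 ± 0.10 (SE, adjusted p = 0.139, limma). Each tumor was higher in the TIC array, and the groups overlapped. Psmg3 had the smallest difference of the chaperones (0.06 ± 0.11), at 6.80, 6.72, 6.54 and 6.34 in the TIC arrays against 6.60, 6.52, 6.82 and 6.22 in the CD24- arrays. It ranged from 0.01 without N251 to 0.18 without N283. Psmg1, the partner of Psmg2, differed by 0.84 in N251 and by -0.01 to 0.19 in the other tumors. Psmd5, Psmd9 and Psmd10, which assemble the base of the cap, differed by 0.27, 0.10 and 0.20, and Psmd10 had no overlap between the groups. In all, 5 of the 47 genes (Psma7, Psmc2, Psmd2, Psmd10 and Psme4) had all TIC arrays above all CD24- arrays, 10.6% where 5.19% of all genes did, and 0 had all TIC arrays below, where 4.68% of all genes did. These 5 are among the 43 bright proteasome genes. Of the 9969 genes at or above the median level, 785 had all TIC arrays above and 484 had all below.

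The symbol rule also takes in 2 genes that are named for binding a proteasome protein and are not subunits. Psmc3ip, which acts in meiotic recombination, was at 7.58, 7.502, 7.65 and 7.37 in the TIC arrays, against 6.97, 7.29, 7.44 and 7.03 in the CD24- arrays, 0.34 ± 0.10 (SE, adjusted p = 0.129, limma). Psme3ip1 was at 8.68, 8.70, 8.80 and 9.26 in the TIC arrays, against 8.85, 8.82, 8.95 and 8.95 in the CD24- arrays (-0.03 ± 0.11), with only the pool higher in the TIC array. Without these 2 genes the median difference was 0.20 and 0 genes were called.

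**Figure D2:**
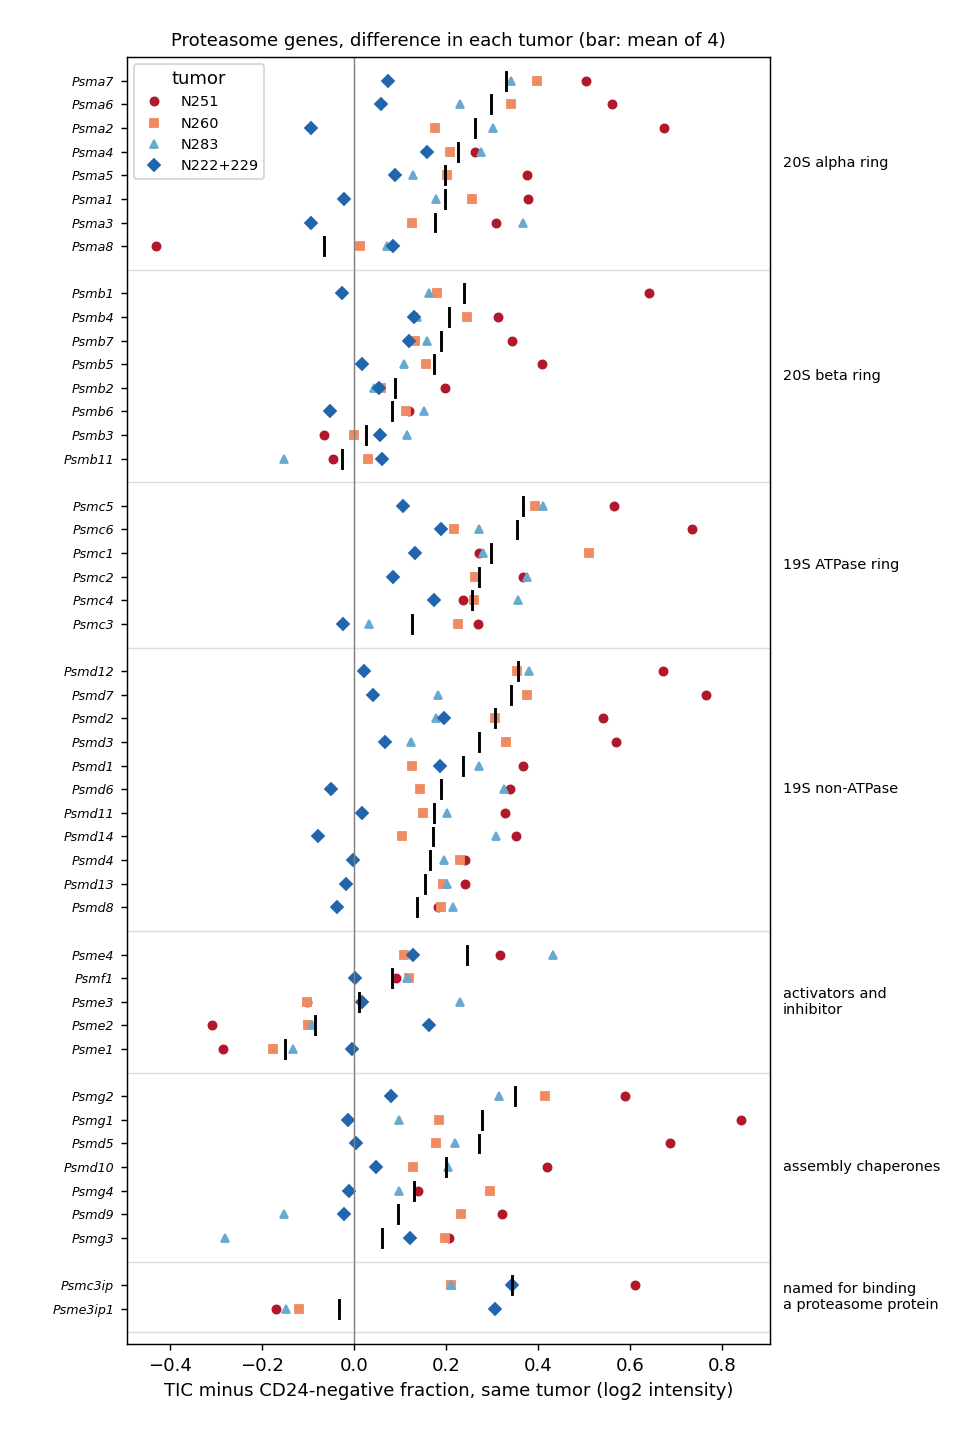
TIC minus CD24- difference in each tumor (log2 intensity) for the 47 proteasome genes, grouped by role, with 1 symbol per tumor and a black bar at the mean of 4. Most means lie right of 0 up to 0.37, N251 is often the rightmost symbol and the pool the leftmost, and the means of Psma8, Psmb11, Psme1, Psme2 and Psme3ip1 lie left of 0.

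The size of the difference varied between tumors. Over the 47 genes the median was 0.33 for N251, 0.19 for N260, 0.20 for N283 and 0.06 for the pool, with 40, 42, 41 and 32 of the genes higher in the TIC array. The medians over all genes were 0.07, 0.08, 0.01 and 0.01 in the same order. Over the 43 bright proteasome genes, those at or above the median level, the medians were 0.34, 0.19, 0.20 and 0.04, beside 0.19, 0.09, 0.08 and 0.05 over all 9969 bright genes. In the pool the bright proteasome genes were therefore not above bright genes as a whole. N251 gave the largest of the 4 differences for 30 proteasome genes (63.8%, against 37.9% of all genes), and for 65.1% of the bright ones, against 47.8% of all bright genes. The pool gave the smallest for 33 (70.2%, against 30.7%), and for 76.7% of the bright ones, against 31.9%. The mean of the 4 tumor medians was 0.19 ± 0.11 (SD, n = 4), and 0.15 without N251.

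The arrays show where N251 stood apart. Relative to each gene's mean over the 8 arrays, the median proteasome gene stood at 0.04, 0.13, 0.21 and 0.02 in the TIC arrays of N251, N260, N283 and the pool, and at -0.30, -0.05, 0.02 and -0.07 in the CD24- arrays. For 30 of the 47 genes the CD24- array of N251 was the lowest of all 8 arrays, where it was the lowest for 26.5% of all genes and 45.3% of bright genes. The TIC array of N283 was the highest for 25 of the 47, where it was the highest for 12.7% of all genes and 17.5% of bright genes. The SD between arrays was larger in the CD24- fraction for 32 genes (68.1%, against 65.3% of all genes), but for 65.1% of the bright proteasome genes against 75.2% of all bright genes. The median SD was 0.14 for TIC and 0.22 for CD24- arrays. In the pool the middle of the genes ran from -0.16 to 0.13 (quartiles) in the TIC array and from -0.21 to 0.08 in the CD24- array, as the plot by array shows.

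**Figure D3:**
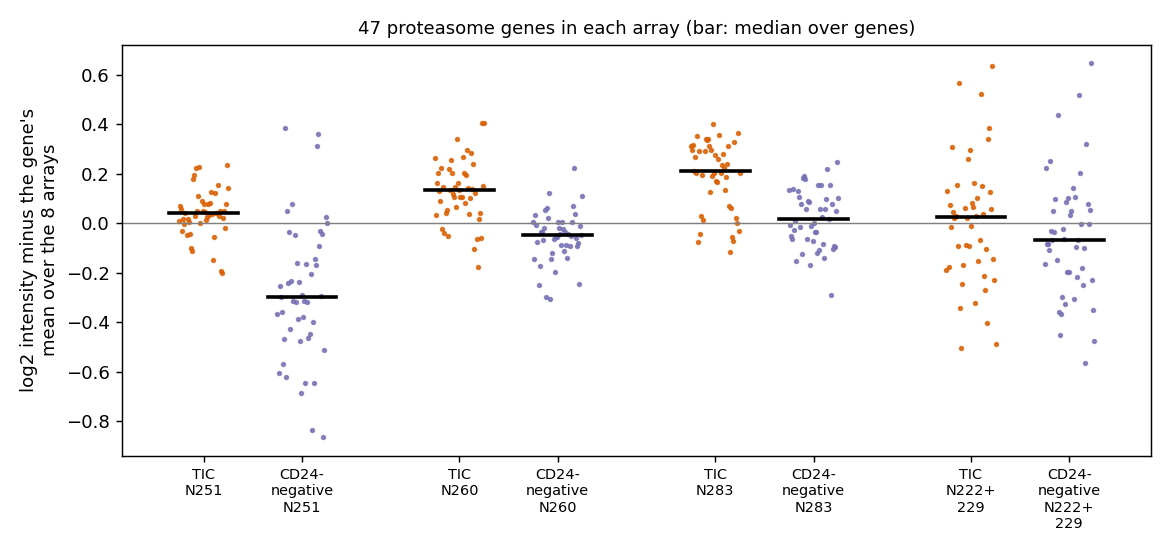
Log2 intensity of each of the 47 proteasome genes minus its mean over the 8 arrays, by array, with the TIC array left of the CD24- array of each tumor and a bar at the median over genes. The median of the CD24- array of N251 is at -0.30, below the other 7 arrays, which lie between -0.07 and 0.21.

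Markers of other cells also differed by tumor. Macrophage markers (12 genes) had mean differences of -5.34, -4.60, -3.70 and -2.69 in N251, N260, N283 and the pool, all 12 being lower in the TIC array of every tumor. Pan-leukocyte markers (8 genes) had mean differences of -4.72, -4.20, -3.23 and -2.27, and T and NK cell markers (6 genes) -4.44, -3.78, -2.97 and -1.57. The CD24- array of N251, lowest in proteasome transcripts, had the highest macrophage mean (11.97) and the lowest luminal epithelial mean (9.71). Luminal markers (9 genes) differed by 1.03, 0.33, 0.06 and 0.06, and cell-cycle markers (9 genes) by 0.85, 0.87, 1.45 and 1.16. The part of these cell types and of cell division in the proteasome differences was not tested.

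**Figure D4:**
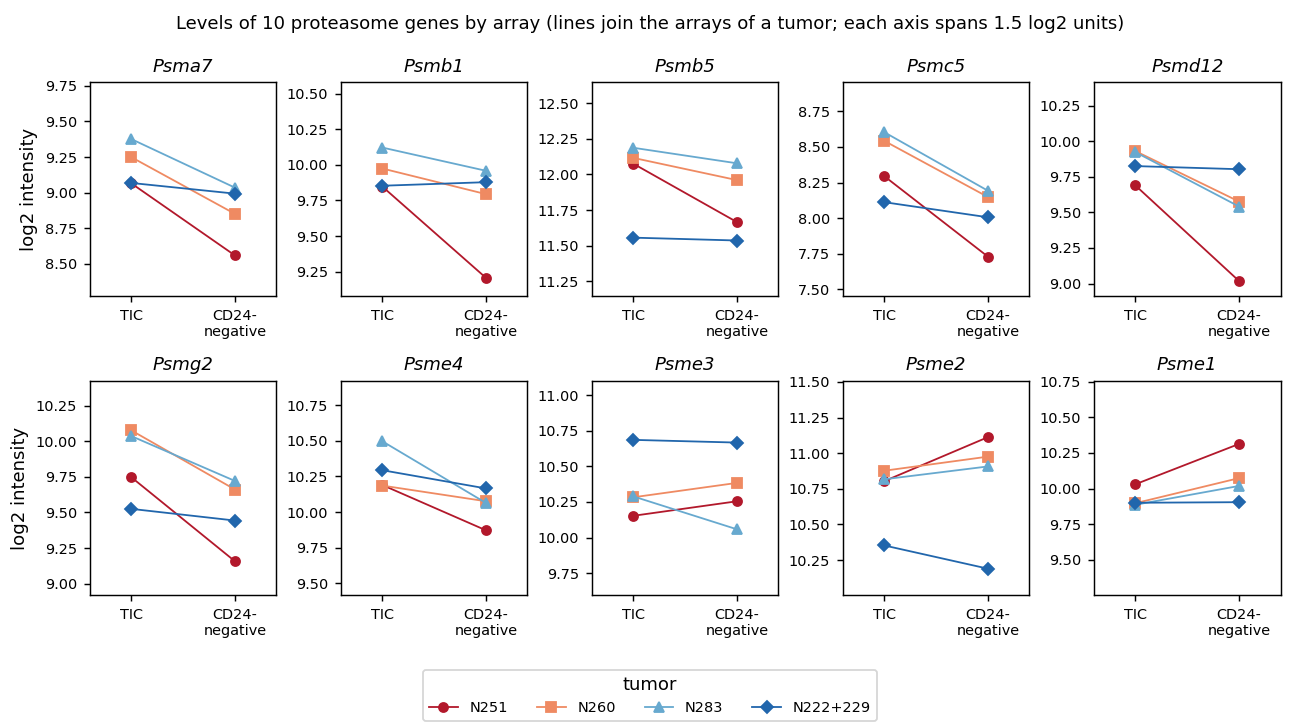
Log2 intensity of 10 proteasome genes in the TIC array (left) and the CD24- array (right) of each tumor, with lines joining the arrays of a tumor and each axis spanning 1.5 log2 units. The lines of Psma7, Psmb5, Psmc5, Psmd12, Psmg2 and Psme4 run down to the right in all 4 tumors, by only 0.02 in the pool for Psmb5 and Psmd12. Those of Psme1 run up or level, and the pool lies apart for Psmb5, Psme2 and Psme3.

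For 5 proteasome genes the array carries more than 1 transcript cluster, of which the brightest was used. The other clusters of Psma3, Psmb3, Psmc1 and Psmd2 gave differences of 0.17 to 0.21, 0.07, 0.40 and 0.27, against 0.18, 0.03, 0.30 and 0.31 for those used. For Psma5 the clusters disagreed in size. The cluster used gave 0.38, 0.20, 0.13 and 0.09 in N251, N260, N283 and the pool (mean 0.20 ± 0.08 SE), and the other, at almost the same level, gave 0.83, 0.40, 0.33 and 0.43 (0.50 ± 0.11). In a fit of all 35556 rows the second clusters of Psma5 and Psmc1 each had an adjusted p = 0.142 (limma), against 0.183 for Psmc5. Their differences, 0.50 and 0.40, lay above the 0.37 of Psmc5, the largest by the rows used. The ranges and largest differences given above hold for the brightest rows.

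Genes that work with the proteasome also had mostly small positive means. Of 15 measured partners (among them ubiquitin receptors that shuttle substrates, deubiquitinases and a maturation factor) 0 were called, 12 had a positive mean and 8 were higher in all 4 tumors, with a median of 0.19. These partners were bright. Over the 9969 bright genes, 69.2% had a positive mean, 34.4% were higher in all 4 tumors and the median was 0.11. Sem1, the smallest subunit of the cap, had the smallest p of them. It was at 8.11, 8.29, 8.55 and 7.88 in the TIC arrays, against 7.95, 8.04, 8.25 and 7.61 in the CD24- arrays, 0.25 ± 0.07 (SE, adjusted p = 0.135, limma). The ubiquitin-activating enzyme gene Uba6, the only member of its list measured by a row with 1 symbol, differed by -0.04 ± 0.10.

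Of 6 genes listed for the control of proteasome genes by Nrf1, 0 were called. Nfe2l1, which encodes Nrf1 itself, differed by 0.09 ± 0.11 (SE) with 2 tumors higher. Nfe2l2, which encodes the related factor Nrf2, had the smallest p and the opposite sign. It was at 9.70, 9.98, 9.75 and 10.60 in the TIC arrays, against 11.90, 11.44, 10.58 and 10.86 in the CD24- arrays. It was lower in the TIC array of every tumor, the difference being -2.19 in N251 and -0.25 in the pool, with a mean of -1.18 ± 0.31 (SE, adjusted p = 0.118 with a fixed tumor block and 0.0403 with a random one, limma). This order of the tumors is that of the macrophage markers above, and their part in it was not tested.

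The interferon-induced subunits left out of the 47 genes showed 0 calls. Psmb10 was at 8.70, 8.76, 8.88 and 8.58 in the TIC arrays, against 9.71, 9.33, 9.16 and 8.42 in the CD24- arrays (-0.43 ± 0.19 SE, adjusted p = 0.255, limma), while Psmb8 and Psmb9 differed by 0.13 ± 0.13 and 0.04 ± 0.11.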

How the data were processed

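The authors deposited log2 intensities per transcript cluster, 1 column per array. RMA and Partek are named, per the submitters' processing notes, without versions, settings or a genome build. Deposited values ran from 1.76 to 14.6, with array medians of 7.03 to 7.18 and correlations between arrays of at most 0.991. No depth applies to arrays, and their number limits the precision.

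Of 35556 rows, 21789 had 1 symbol in the platform annotation, 1621 several and 12146 none. Identifiers of 21698 rows matched RefSeq (GRCm38.p6), which renamed 0. The brightest row over all arrays stood for a gene, leaving 19938 genes.

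Groups and tumors came from the sample titles. Both fractions came from the same tumor per the labels, so limma 3.58.1 (R 4.3.3) was fitted with the tumor as a block and Benjamini-Hochberg adjustment over all genes. Deviations of paired arrays correlated across genes at 0.30 to 0.56. The fit was tested on simulated data, where recovery was required only for a planted difference larger than that of any proteasome gene. How often differences of their size would be called is not given here. The labels do not say that each tumor came from its own mouse. With the block, p-values set the mean TIC minus CD24- difference against its variation between these 4 pairs, with the variance moderated over all genes.

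Values of all arrays are given for called genes, the largest and smallest difference in each role group, Psme1 to Psme4 and Psmb5 to Psmb7; in other lists for called genes or the one with the smallest p. Proteasome genes named with a mean alone, and the interferon motif, were chosen after values were seen. The genes and lists were chosen with earlier results of these data known. List genes without a row of their own symbol were not analysed here. Alternatives covered the block, filters, prior, weights, scaling, rows, threshold, tumors left out and the choice of genes.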

Additional observations from a re-analysis of the deposited data

Results flagged for a closer look

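In 3 of 40 groups of 4 arrays, 1 array stood far from the other 3 of its fraction, where chance gives about 2 (1 in 20 groups). In the TIC fraction, Psmc3 was at 8.981 in the pool of N222 and N229 (other arrays 9.175 to 9.194). Psme1 was at 10.03 in N251 (others 9.886 to 9.9). Psme2 was at 10.352 in the pool of N222 and N229 (others 10.804 to 10.877).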

How the results depend on the processing

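In each alternative run, 0 proteasome genes were called higher or lower, and the lowest adjusted p was between 0.0709 (tumor as a random block) and 0.353 (without tumor N260), all from limma. The median difference stayed positive, at 0.25 after median centring, 0.16 after quantile normalization, 0.10 after cyclic loess, and 0.13 to 0.25 with a tumor left out. The median over all genes was 0.09, 0.04 and 0.002 after these scalings, and 0.03 to 0.05 with a tumor left out. The count higher in all tumors and the count at an unadjusted p were added after seeing the data. At an unadjusted p under 0.05, 19 genes were higher with the pairing by tumor, 7 with no replicate block, 9 after cyclic loess, and 6 to 21 with a tumor left out. The share of all genes at that p was computed for the main fit alone. The 25 genes higher in every tumor became 33 after median centring, 21 after quantile normalization and 18 after cyclic loess. They became 25 to 38 with a tumor left out, 38 being without the pool of N222 and N229. Leaving a tumor out cannot lower this count, since fewer tumors must be higher. The share of all genes was 23.2% in the main run, 29.4%, 20.6% and 16.1% after these scalings, and 26% to 32.7% with a tumor left out. Of 19 single genes, 14 kept their sign in all alternatives run for them. The sign turned for Psma8 with array weights (0.006) and without N251 (0.0577; lowest with a tumor left out -0.1142, without the pool), for Psmb11 after median centring (0.021), after quantile normalization (0.0186) and without N283 (0.0154; lowest with a tumor left out -0.0557, without the pool), for Psmb6 after cyclic loess (-0.0216), for Psme3 after quantile normalization (-0.0146), after cyclic loess (-0.0914) and without N283 (-0.0613; highest with a tumor left out 0.0497, without N251), and for Psme3ip1 after median centring (0.0154), without N251 (0.0137; lowest with a tumor left out -0.1451, without the pool) and without N283 (0.0067). The cause of these shifts was not tested. Over all genes, calls numbered 172 higher and 218 lower with the block, 10 and 148 without it, 430 and 606 with tumors as random, 445 and 572 under array weights, 265 and 314 after median centring, 110 and 183 after cyclic loess, 63 and 88 when only the brighter 9969 genes were tested, 0 and 2 with all rows, 0 and 0 at an adjusted p under 0.01, 360 and 480 without N251, 74 and 299 without the pool of N222 and N229, and 0 and 0 without N260 or without N283. Signal over background was not analysed here, so dim genes such as Psma8 have no bound.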

Other observations

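A row of the array that carries the symbols of both Psme2 and its near-copy Psme2b, and so stands for neither gene above, differed between the TIC and the CD24- array by -1.26 for N251, -0.55 for N260, -0.04 for N283 and -0.22 for the pooled tumors N222 and N229 (mean -0.52). The row with Psme2 alone differed by -0.31, -0.10, -0.09 and 0.16 in the same tumors. Transcripts of near-identical copies cannot be told apart on such rows.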
